A study of Mus musculus with 931 samples.

Results

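The cells described here are 71 single pancreatic β cells taken from mice at postnatal day 18 (P18), out of 917 single cells in the deposited count table. They were chosen by label alone, as P18 cells that are Ins1-RFP+ with no second hormone named, and they came in 3 labelled batches. Batch 1 held 31 FACS-sorted cells, batch 2 held 35 FACS-sorted cells and batch 3 held 5 manually picked cells. The mice carried Ins1-RFP, a red reporter driven by the insulin 1 gene, on a mixed background of C57BL/6 and C3H. They were set against 57 β cells at P15 (3 batches) and 129 β cells at P60 (5 batches) from the same reporter line. They were also set against 44 α cells at P18 (3 batches), which were marked in Gcg-Cre; Rosa-RFP mice of a mixed C57BL/6, CBA/J and C3H background. All these mice therefore carried a red reporter, and cell type and mouse line cannot be told apart in the comparison with α cells. The study followed β and α cells from before birth to adulthood with Smart-seq2, which reads whole transcripts of 1 cell and carries no molecular identifiers.

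The β cell makes, stores and secretes insulin. Glucose enters the cell, is phosphorylated and burned, and the resulting rise in ATP closes potassium channels, opens calcium channels and releases secretory granules in which proinsulin has been cut to insulin and packed with zinc. Because so much of its translation passes through the endoplasmic reticulum (ER), the cell depends on ER chaperones, and weaning, which falls close to this age in mice, is when the secretory response to glucose matures. Urocortin 3, encoded by Ucn3, is a peptide that mouse β cells release with insulin and is widely used as a marker of their maturity.

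A P18 β cell held 0.877 M to 1.61 M gene reads (median 1.21 M, M being 1e6), with at least 1 read for 6575 to 8722 genes (median 7390). Spike-in RNAs took 1.18% to 3.79% of a cell's reads, with batch medians of 2.07%, 3.20% and 1.76%. Batches 1 and 2 agreed closely: of 4765 genes compared, 3.11% differed by 2-fold or more in mean level. Batch 3 stood further away, with 21.6% of genes 2-fold or more from batch 1 and 20.4% from batch 2, but its means rest on 5 cells. 2 pairs of libraries were near-copies of each other among the 866 cells compared. Cells 5 and 6 of P18 batch 1 correlated at r = 0.99 over 10069 genes (log2(CPM + 1)), where no pair outside these 2 passed 0.609, and the squared deviation of their counts was 1.05 times the sampling variance, against at least 23.3 times for other pairs of that batch. Cell 1 of P18 batch 3 and cell 12 of P60 batch 3 also correlated at r = 0.99, with a deviation of 1.425 times the sampling variance, against at least 23.0 times for other pairs of those batches. The 71 libraries therefore stand for at most 70 cells, and 1 of them carries the labels of both P18 and P60, so that its age cannot be told. Values below use the libraries as labelled, and those that moved with cell 6 of batch 1 left out and both libraries of the second pair left out (69 P18 libraries) are given beside them as counted once. In that count 914 genes, against 907, were read in every cell, and batch 3 differed by 2-fold or more for 24.2% of genes from batch 1 and 23.3% from batch 2. The labels name batches but no animal, so every p-value below measures the spread between batches, which may be technical.

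The labelled cell type was set beside its markers. Ins1, Ins2, Ucn3 and Chga had reads in all 71 cells. The cells were chosen by an Ins1 reporter, so Ins1 is no independent check. A read alone does not mark a β cell, as Ins1 was read in 36 and Ins2 in 37 of 44 P18 α cells. Per 1e6 gene reads, the median of Ins2 was 343537 in the β cells and 32.7 in the α cells. Levels are given first as deposited TPM, a transcript abundance scaled to a common total per cell, which corrects for gene length and allows genes to be set against each other. Ins2 (chr7:142678656-142743381, minus strand, GRCm38) had between 499911 and 611583 TPM with a median of 552308. Ins1 (chr19:52264297-52265476, plus strand) had between 77557 and 188114 TPM with a median of 133783. These near-identical paralogs both encode proinsulin, and reads shared between them could have been split or lost in the counting, so their ratio is uncertain. As counted, Ins2 had 1.78 to 4.52 times the reads of Ins1 in a cell (median 2.40). Ins1 and Ins2 together held between 40.8% and 58.0% of a cell's gene reads (median 48.6%).

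Behind insulin came Iapp, which encodes amylin, a peptide stored and released with insulin, at 28330 to 99443 TPM (median 60313). Yam1, annotated as a long noncoding RNA (chr17:39846958-39848788, plus strand, named Gm42418 in GENCODE vM21), had 15835 to 56579 TPM (median 31099). Whether all reads counted for Yam1 come from that RNA was not tested. Chga, which encodes the granule protein chromogranin A, had 2314 to 8221 TPM (median 3869). Scg2, a second granin, had 772 to 3713 TPM (median 1725). G6pc2, the islet glucose-6-phosphatase subunit, had 309 to 3308 TPM (median 1595). The 15 genes with the highest median TPM were ranked with genes of Rpl, Rps, mt- or provisional symbols left out. Of the other genes among those 15, 5 also serve the granule or the hormone in it. Scg5, the chaperone of prohormone convertase 2, had a median of 866 TPM. Cpe, carboxypeptidase E, which trims the cut prohormone, had a median of 735 TPM. Slc30a8, which carries zinc into the granule, had a median of 615 TPM. Resp18, a granule protein related to the islet autoantigen Ptprn, had a median of 587 TPM but was at 0 in 9 cells. Pcsk1n, an inhibitor of prohormone convertase 1, had a median of 454 TPM. The remaining 3 were Malat1 (median 709 TPM), the ferritin gene Fth1 (657 TPM) and the actin gene Actb (468 TPM). Ucn3 lay outside the leading 15, with 28.5 to 960 TPM and a median of 423.

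**Figure D1:**
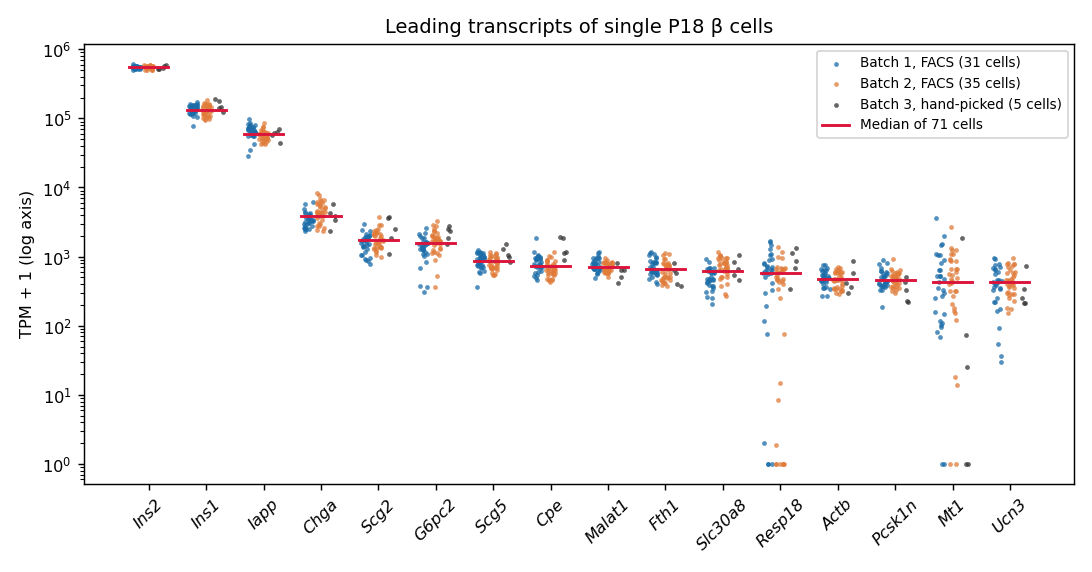
Deposited TPM + 1 on a log axis in each of the 71 P18 β cells (points, coloured by batch) for leading transcripts named in the text. Ins2 spans a narrow range from 499911 to 611583 TPM, and Resp18 has cells at 0 beside cells above 1000 TPM.

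Levels within the insulin-making machinery are given as CPM, the reads of a gene per 1e6 gene reads of the cell, a unit that is not corrected for length and is used below for comparing cells with cells. Slc2a2, which encodes the glucose transporter GLUT2, had 43.8 to 1612 CPM (median 490). Abcc8, the sulfonylurea receptor subunit of the ATP-sensitive potassium channel, had a read in all 71 cells (81.8 to 875 CPM, median 323). Kcnj11, the pore subunit of the same channel, had a read in 48 cells, with a median of 2.14 CPM and a highest value of 35.1 CPM. The convertases that cut proinsulin were read in every cell, with Pcsk1 at a median of 301 CPM and Pcsk2 at a median of 1715 CPM. Ero1lb, an ER oxidase that helps insulin to form its disulphide bonds, had a median of 1681 CPM. All 21 genes fixed as a list of β cell identity and function were read in at least 0.5 of the cells, and 13 of them in all 71.

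Among 20 islet transcription factors, 5 were read in every cell, 13 in at least 0.5 of the cells and 1, Foxa1, in none. Pdx1, a master regulator of pancreas and insulin gene expression, had 44.0 to 335 CPM (median 142). Neurod1 had a median of 196 CPM, Pax6 of 183 CPM, Isl1 of 104 CPM and Nkx6-1 of 67.9 CPM. Mafa, an activator of insulin transcription that marks mature β cells, stood apart from these. It was read in 16 of 71 cells, at no more than 4.61 CPM. The 2 bulk libraries of sorted P18 β cells in the same series, normalized separately from the single cells, had 76.5 and 50.7 CPM of Mafa. Kcnj11 likewise had 56.1 and 61.8 CPM in bulk. The sum of 14 acinar genes had batch means of 8.06 to 32.1 CPM in the single cells, against 19094 and 33679 CPM in the bulk libraries, and in bulk a larger share of a cell type cannot be told apart from more RNA per cell. The part of these differences in the Mafa and Kcnj11 values was not tested.

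Genes of other islet hormones were read in some of these cells at low level. Sst, encoding somatostatin, the δ cell hormone, was read in 39 of 71 β cells (54.9%, exact 95% binomial interval 42.7% to 66.8%) with a highest value of 372 CPM, and in 20 of 44 α cells (45.5%, 30.4% to 61.2%). The median depths were 1.21 M reads in β cells and 1.04 M reads in α cells. Sst was read in 30 of 57 β cells at P15 (52.6%, 39.0% to 66.0%) at a median of 1.18 M reads, and in 28 of 129 β cells at P60 (21.7%, 14.9% to 29.8%) at a median of 1.21 M reads. The interval at P18 thus overlapped those of P15 β cells and of α cells, which should lack the hormone as well, and lay above that of P60 β cells. These intervals treat cells as independent although they came in batches, and the share of cells was not tested over batches. In the test of levels over batches given below, Sst was not called between P18 and P60. Of the P18 β cells 2 passed 100 CPM, at 372 and 288 CPM. Gcg, encoding glucagon, was read in 18 of 71 β cells (25.4%, 15.8% to 37.1%), with 209 CPM in the highest cell and 45.8 CPM in the next. In α cells, for comparison, Gcg had a median of 388485 CPM. Ppy was read in 15 cells (highest 728 CPM) and Pyy, the related peptide YY gene, in 32 cells (highest 3512 and 1894 CPM). The ghrelin gene Ghrl was read in 0 of 71 cells, with an exact upper limit of 5.06%. The reverse signal was present too: Ins2 was read in 37 of 44 α cells, with a median of 32.7 CPM and 2 cells at 36059 and 18194 CPM. These intervals cover counting error only.

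Most markers of cells outside the endocrine lineage were at or near 0, with the exception of some duct genes. The sum of 14 acinar genes was 0 in 58 of 71 cells and at most 326 CPM. The sum of 6 mesenchymal genes never passed 2.32 CPM, and that of 6 immune genes was 0 in 56 cells. The sum of the 7 duct genes was 35.8 to 452 CPM (median 201). Krt7 was read in all 71 β cells (median 169 CPM), Spp1 in 27 cells and Krt19 in 4, while Sox9 and Muc1 were read in 1 cell each and Cftr in none. Of the 10 α cell markers, Irx1, which encodes a transcription factor of α cells, was at 0 in every cell, whereas Ttr, Slc7a2 and Sphkap were read in 70 or 71 cells. At least 1 of 4 Y-linked genes was read in all 71 cells, and Xist, the X-inactivation transcript of female cells, in 3 cells at no more than 8.44 CPM. Mki67, a marker of dividing cells, was read in 4 of 71 cells, with 27.9 CPM in the highest.

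Genes kept silent in healthy β cells, often called disallowed genes, were at low level. None of the 19 on the list reached a mean of 20 CPM in both FACS batches, and 9 were read in no cell, among them Slc16a1, a lactate and pyruvate transporter, and the low-Km hexokinase Hk1. Ldha, lactate dehydrogenase A, was read in 9 cells at no more than 4.50 CPM. Of the 19, 2 were read in at least 0.5 of the cells. Over all 40824 genes, 3854 met that mean, 21860 were read in no cell and 7075 in at least 0.5 of the cells. The share of the list read in no cell was thus no larger than that of all genes. In the test against P18 α cells given below, Cd44 was called higher and 4 of the list lower, of 16 tested. Over all genes 4.86% were called higher and 4.19% lower.

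Detection followed level. Of 40824 genes in the table, 18964 had a read in at least 1 of the 71 cells, 7075 in at least 0.5 of them and 907 in all of them, while 21860 had none. Genes with a mean of 1 to 5 CPM were read in a median of 19.7% of cells. The median was 59.2% for genes at 10 to 20 CPM, 83.1% at 20 to 50 CPM, 97.2% at 50 to 100 CPM and 100% above that. Of the 85 cytosolic ribosomal protein genes, 73 were read in every cell, and so were 54 of the 69 nuclear genes of oxidative phosphorylation.

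A few genes fell outside this pattern, with a mean above 100 CPM yet no read in many cells. Gad1, which encodes the enzyme that makes the transmitter GABA, averaged 116 CPM and was read in 54 of 71 cells (76.1%). Resp18 averaged 444 CPM and was read in 62 cells. The metallothionein gene Mt1 averaged 341 CPM and was read in 65 cells. The immediate early genes Dusp1 and Ier2 and the Ras-related gene Rasd1 were also in this group, with reads in 61, 66 and 63 cells.

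Other genes were read in only part of the cells but at a high level where they were read. A total of 5915 genes had a read in 20% to 80% of the cells of both FACS batches, and 15 of them had a median of 50 CPM or more in the cells with a read. The highest of these were Rgs2, a regulator of G protein signalling, with a read in 45 cells and a median of 88.8 CPM there, and Mt2, with a read in 53 cells and a median of 81.0 CPM there. Angptl7 followed (48 cells, 79.7 CPM), then Dpp4 (53 cells, 62.2 CPM), the peptidase that inactivates incretin hormones. Ndn, Nampt, Bhlha15 and Kctd12b had medians of 52.4 to 56.2 CPM in the cells with a read.

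**Figure D2:**
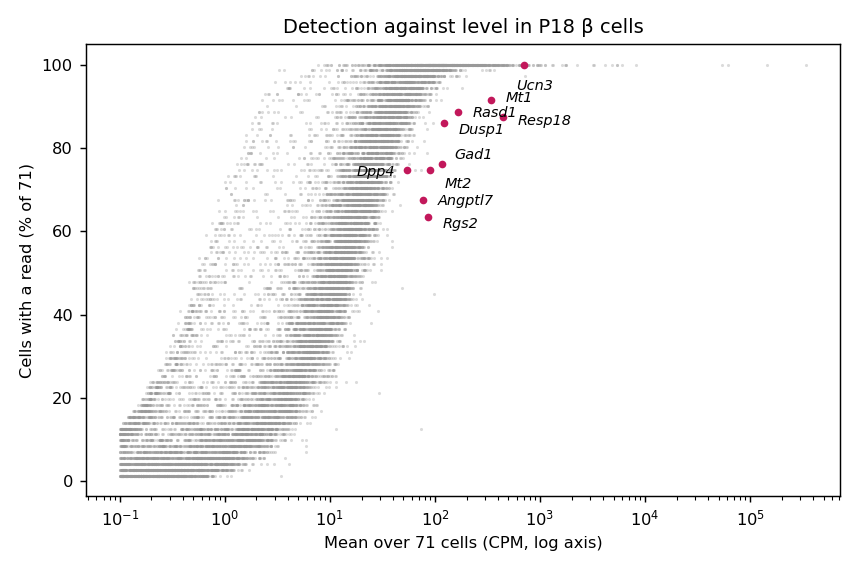
Share of the 71 P18 β cells with a read (vertical axis, %) against mean level over all cells (horizontal axis, CPM, log scale), 1 point per gene. Detection climbs with level, and the named genes Gad1, Dusp1, Resp18 and Mt1 lie below the other genes of their level.

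Variation between cells was measured as the squared coefficient of variation (CV, standard deviation over mean) of CPM, divided by the value expected at that level from a smooth trend over all genes. A gene was called variable when this ratio was at least 2 in both FACS batches, each analysed alone, with a mean of at least 20 CPM in both and no single cell holding over 0.5 of the summed CPM of the gene. Of 3854 genes at that level, 54 were called (1.4%). Where shares and ratios of variation below are set against all genes, these 3854 are meant. The gene lists were chosen with earlier results of these data known, so their shares describe and do not test. Of these 3854 genes, batch 1 alone gave 170 and batch 2 alone 138, and the ratios of the 2 batches correlated across genes with r = 0.642 on the log2 scale. Genes share cells and are not replicates, so this is a description without a p-value. With near-copies counted once 55 genes were called, 53 of them shared with the 54. Just inside the limit were Th, with ratios of 4.69 and 2.03, and Eif1a, with 2.13 and 2.03. Just outside were Emilin1, with 1.98 and 2.21, and Slc40a1, with 2.06 and 1.98.

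Spike-in RNAs, added alike to every cell, give a view of the spread of the method. Each was scaled to the spike-in total of its cell, so differences in spike-in share between cells are removed. A spike-in that makes up much of that total has its spread lowered by this scaling. In batch 1 the median CV of genes at 20 to 100 CPM was 0.858, against 0.808 for 12 spike-ins of that level. At 100 to 1000 CPM it was 0.460 for genes and 0.291 for 8 spike-ins. At 1000 CPM and above it was 0.259 for genes and 0.0888 for 5 spike-ins. Batch 2 gave the same order, with 0.828 for genes and 0.827 for spike-ins at the lowest level, and 0.268 for genes and 0.0808 for spike-ins at the highest. Genes and spike-ins were thus close to each other at low level and apart at high level. The part of the scaling in the gap at high level was not tested.

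Ins2 varied less than its level predicts, and the other leading hormone genes more. Ins2 had a CV of 0.0698 over the 71 cells, with ratios to the trend of 0.309 and 0.449 in batches 1 and 2. Ins1 had a CV of 0.173 and ratios of 1.55 and 2.57, and Iapp a CV of 0.195 and ratios of 2.19 and 1.29. At such levels the trend rests on few genes, and Ins2 alone takes 28.9% to 39.2% of the reads of a cell. Across cells of a batch, Ins1 and Ins2 were weakly related in rank (rho = 0.19 over 31 cells and 0.15 over 35 cells).

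The 2 metallothionein genes led the variable genes named here. Metallothioneins are small cysteine-rich proteins that bind zinc and copper, and the β cell holds much zinc with its insulin. Mt1 ranged from 0 to 2064 CPM with a median of 234 in batch 1, from 0 to 1589 CPM with a median of 273 in batch 2, and from 0 to 966 CPM with a median of 14.1 in the 5 cells of batch 3. The library labelled both P18 and P60 holds the 966 CPM, and without it batch 3 reached 38.2 CPM. Its ratios to the trend were 10.9 and 6.02. Mt2 ranged from 0 to 732 CPM over all cells (median 46.4), with ratios of 10.2 and 4.91. High cells were few: 4 of 31 cells in batch 1 and 1 of 35 in batch 2 had over 3 times the batch median of Mt1, while 8 and 6 cells lay below that median divided by 3. The cell with the highest Mt1 also had the highest Mt2. Their ranks ran together across cells, with rho = 0.92 in batch 1 and 0.85 in batch 2, the closest of 1431 pairs of variable genes. The genes are neighbours (Mt2 chr8:94172664-94173568, Mt1 chr8:94179082-94180327, both plus strand, 5513 bases apart), and cells of a batch share library preparation and differ in depth. The rank correlation of Mt1 with gene reads per cell was 0.09 in batch 1 and 0.19 in batch 2.

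The RefSeq promoters of both genes (250 bases before to 50 after the start, GRCm38.p6, chr8:94178839-94179138 for Mt1 and chr8:94172368-94172667 for Mt2) are shown because the genes move together. Capitals mark matches to the metal response element, searched on both strands as TGCACNC or TGCGCNC, where N is any base.
Mt1: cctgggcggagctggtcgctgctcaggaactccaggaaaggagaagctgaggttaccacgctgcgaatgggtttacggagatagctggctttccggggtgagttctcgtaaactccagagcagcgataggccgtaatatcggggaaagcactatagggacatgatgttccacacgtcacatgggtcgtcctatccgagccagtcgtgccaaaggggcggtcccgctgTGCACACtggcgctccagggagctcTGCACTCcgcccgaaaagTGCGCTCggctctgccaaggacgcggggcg
Mt2: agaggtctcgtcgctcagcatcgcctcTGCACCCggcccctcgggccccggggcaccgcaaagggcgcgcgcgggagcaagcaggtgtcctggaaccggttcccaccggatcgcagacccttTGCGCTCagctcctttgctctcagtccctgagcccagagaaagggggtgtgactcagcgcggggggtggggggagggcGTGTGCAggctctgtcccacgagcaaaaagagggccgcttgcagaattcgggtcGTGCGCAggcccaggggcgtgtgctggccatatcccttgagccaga
The Mt1 window held 3 matches and the Mt2 window 4. Of 32851 promoters of this length, 25.7% held at least 1 match, 1.969% held 3 or more and 0.5175% held 4 or more. A match is a description of letters and says nothing of whether the site is bound.

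Genes of ER protein folding formed the second group. Hspa5, which encodes the ER chaperone BiP, had 276 to 7158 CPM in batch 1 (median 789), 188 to 2902 CPM in batch 2 (median 719) and 462 to 1556 CPM in batch 3 (median 1000.2, or 1138 counted once). Its ratios to the trend were 16.7 and 4.03. A single cell of batch 1 held 7158 CPM, and that cell was also the highest for Sdf2l1 (1324 CPM), Creld2 (1017 CPM) and Pdia4 (1177 CPM). Batch 2, which does not include it, still gave ratios of 3.54 for Sdf2l1, 3.12 for Creld2 and 2.15 for Pdia4. Sdf2l1 is a cofactor of BiP, Creld2 an ER-stress-induced folding factor and Pdia4 a protein disulphide isomerase. Of 21 genes on the ER folding and unfolded protein response list at 20 CPM or more, these 4 were called variable (19.0%, against 1.4% of all genes), and the median ratio over the list was 1.76, against 1.00 over all genes. The chaperone Hsp90b1 and the isomerases Pdia3 and Pdia6 passed the limit in batch 1 and not in batch 2.

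These genes also ran together across cells. Sdf2l1 and Creld2 had rho = 0.71 in batch 1 and 0.61 in batch 2, Sdf2l1 and Hspa5 had 0.50 and 0.72, Sdf2l1 and Pdia4 had 0.62 and 0.55, and Creld2 and Hspa5 had 0.53 and 0.53. Hsp90b1, which was not called variable, followed Hspa5 with rho = 0.60 and 0.62. Against depth, Hspa5 had rho = 0.26 and 0.07 with gene reads per cell, and -0.49 and 0.01 with the spike-in share. Hspa5 and the insulin gene Ins2 had rho of -0.18 and -0.07.

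The promoters of 3 of these genes are shown for the same reason (RefSeq, GRCm38.p6: Hspa5 chr2:34771840-34772139, plus strand; Sdf2l1 chr16:17132334-17132633, minus strand; Creld2 chr15:88819396-88819695, plus strand). Capitals mark matches to the ER stress response element, CCAAT and CCACG with 9 bases of any kind between them, on either strand, which ATF6 and the general factor NF-Y are known to bind.
Hspa5: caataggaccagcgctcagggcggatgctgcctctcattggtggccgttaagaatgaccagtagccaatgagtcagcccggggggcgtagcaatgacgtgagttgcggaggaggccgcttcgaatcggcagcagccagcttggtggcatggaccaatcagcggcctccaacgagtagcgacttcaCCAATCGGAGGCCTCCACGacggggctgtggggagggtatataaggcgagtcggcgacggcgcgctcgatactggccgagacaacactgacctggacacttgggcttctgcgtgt
Sdf2l1: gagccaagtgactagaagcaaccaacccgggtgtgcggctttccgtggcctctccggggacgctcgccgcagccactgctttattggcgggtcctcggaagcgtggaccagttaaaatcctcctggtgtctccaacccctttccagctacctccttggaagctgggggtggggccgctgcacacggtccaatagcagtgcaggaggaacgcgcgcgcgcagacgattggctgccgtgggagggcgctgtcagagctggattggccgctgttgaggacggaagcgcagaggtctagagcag
Creld2: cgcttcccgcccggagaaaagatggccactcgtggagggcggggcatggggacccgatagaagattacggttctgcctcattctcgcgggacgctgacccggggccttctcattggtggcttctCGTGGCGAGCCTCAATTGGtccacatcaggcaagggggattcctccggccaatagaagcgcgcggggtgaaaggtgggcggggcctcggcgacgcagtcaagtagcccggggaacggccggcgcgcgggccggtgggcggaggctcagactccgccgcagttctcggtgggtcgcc
The Hspa5 and Creld2 windows held 1 match each and the Sdf2l1 window held 0. The element occurred in 39 of 32851 promoters of this length (0.1187%).

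**Figure D3:**
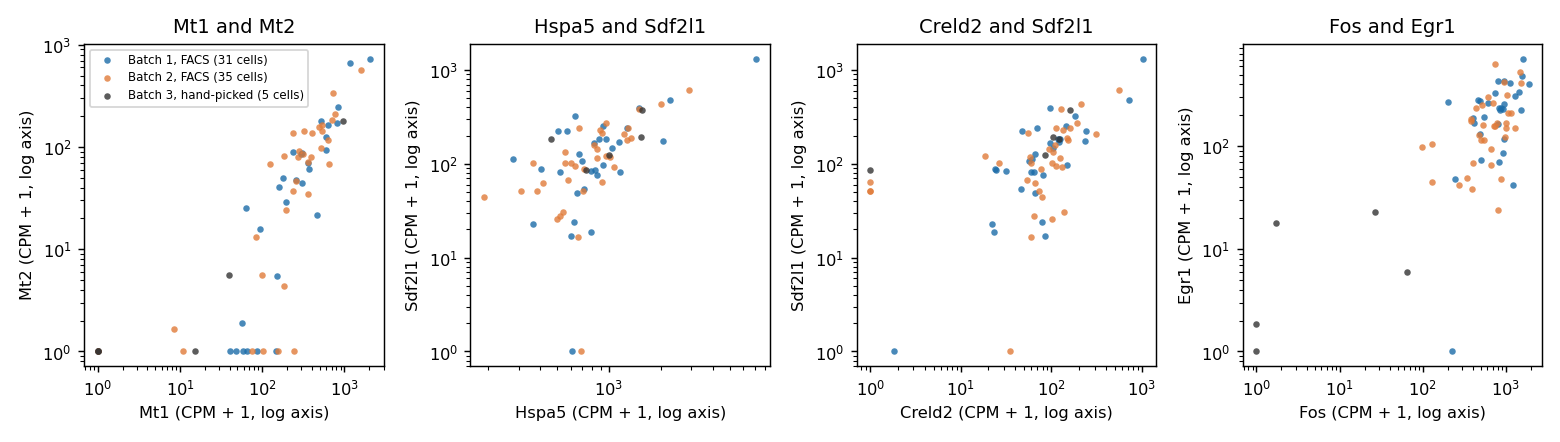
Levels of paired variable genes in single P18 β cells (CPM + 1, log axes, 1 point per cell, coloured by batch). Mt1 and Mt2 lie along a narrow band, with rho of 0.92 and 0.85 in the FACS batches, and the other pairs spread more widely.

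Immediate early genes, which are switched on within minutes of a stimulus, were the third group. Of 8 such genes at 20 CPM or more, 5 were called variable: Fos, Jun, Egr1, Dusp1 and Btg2 (62.5%, against 1.4% of all genes), and the median ratio over the list was 2.72. Fos, a subunit of the AP-1 transcription factor, had 198 to 1884 CPM in batch 1 (median 828) and 97.5 to 1537 CPM in batch 2 (median 665). In the manually picked batch 3 it had 0 to 63.8 CPM (median 0.741), or 0 to 25.5 CPM counted once, below every cell of the sorted batches. Egr1, a zinc-finger factor, had medians of 234, 156 and 4.91 CPM in batches 1, 2 and 3, and Dusp1, a phosphatase of MAP kinases, had 122, 75.1 and 0 CPM. Jun had medians of 12.2, 21.6 and 0 CPM. The manually picked batch was thus the lowest of the 3 in each of these genes, and with 1 manually picked batch the method and the batch cannot be told apart at this age. Btg2 and Fos had rho of 0.60 and 0.62, Fos and Egr1 had 0.44 and 0.48, and Fos and Jun had 0.18 and 0.28. Fos had rho of 0.21 and 0.03 with Hspa5 and of -0.03 and -0.14 with Mt1.

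Several genes of β cell identity also varied. Ucn3 ranged from 43.4 to 1473 CPM in batch 1 (median 641), from 236 to 1531 CPM in batch 2 (median 713) and from 307 to 1027 CPM in batch 3 (median 388), or to 471 CPM counted once. Its ratios were 3.69 and 2.04, and 4 cells of batch 1 and 1 of batch 2 lay below the batch median divided by 3. G6pc2 ranged from 594 to 6667 CPM over all cells, with ratios of 2.62 and 2.41. Its neighbour Spc25, a kinetochore gene on the other strand 4878 bases away (Spc25 chr2:69193895-69206194, G6pc2 chr2:69211073-69227841), ranged from 10.2 to 880 CPM with ratios of 3.49 and 3.41. The pair had rho of 0.28 and 0.44, and counts near such neighbours are uncertain because the strand setting of the counting is not given in the sources used here. Nnat, an imprinted gene that aids the processing of preproinsulin, had a median of 8.09 CPM and a highest value of 651 CPM. In all, 3 of the 19 identity genes at 20 CPM or more were called (15.8%, against 1.4% of all genes). No islet transcription factor was called, with 0 of 11 at that level and a median ratio of 0.916.

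Among granule genes, Resp18, Scg2 and Syt4 were called, 3 of 21 (14.3%, against 1.4% of all genes). Syt4 is a synaptotagmin that lowers the calcium sensitivity of release in maturing mouse β cells. Resp18 had 0 to 1260 CPM in batch 1 (median 477), 0 to 1092 CPM in batch 2 (median 381) and 246 to 977 CPM in batch 3 (median 699), or to 817 CPM counted once. No cell passed 3 times the batch median, while 7 cells of batch 1 and 10 of batch 2 lay below the median divided by 3. The tetraspanin gene Cd81 showed the other shape, with medians of 10.0 and 25.1 CPM, highest cells at 362 and 378 CPM, and 11 and 13 cells over 3 times the median. Th, which encodes the rate-limiting enzyme of catecholamine synthesis and is known to mark a subset of mouse β cells, reached 386 CPM around a median of 46.7. Of the 4 genes at 20 CPM or more on a list of genes reported to mark β cell subsets, 3 were called (Cd81, Th and Ucn3). That list names genes already known to differ between β cells.

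The other leading variable genes had varied roles. Rgs2 ranged from 0 to 862 CPM, with reads in 16 of 31, 24 of 35 and 5 of 5 cells of batches 1, 2 and 3. Gad1 ranged from 0 to 638 CPM with ratios of 3.88 and 5.38. Pla2g2f, a secreted phospholipase A2, ranged from 0 to 469 CPM with ratios of 3.98 and 4.92. Arhgap36 ranged from 0 to 339 CPM and Lyve1, best known as a hyaluronan receptor of lymphatic vessels, from 0 to 333 CPM. Nr1d1, a repressor of the circadian clock, was read in 34 cells and reached 267 CPM, the 1 clock gene called of 7 at that level.

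At the other end, the ranking passed over genes with Rpl, Rps, mt- or provisional symbols. Among the rest, the genes with the least variation for their level were Zfp488, Atp5k, Atp5l, H3f3a, Fau and Anapc13. Atp5k and Atp5l encode ATP synthase subunits, H3f3a a histone, Fau a ribosomal protein and Anapc13 a subunit of the anaphase-promoting complex. H3f3a had 26.4 to 111 CPM (median 59.0) and ratios of 0.156 and 0.209. Of 74 cytosolic ribosomal protein genes at 20 CPM or more, 0 were called and the median ratio was 0.336. Of 67 nuclear genes of oxidative phosphorylation, 0 were called and the median ratio was 0.496. Both medians lie below the 1.00 of all genes.

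**Figure D4:**
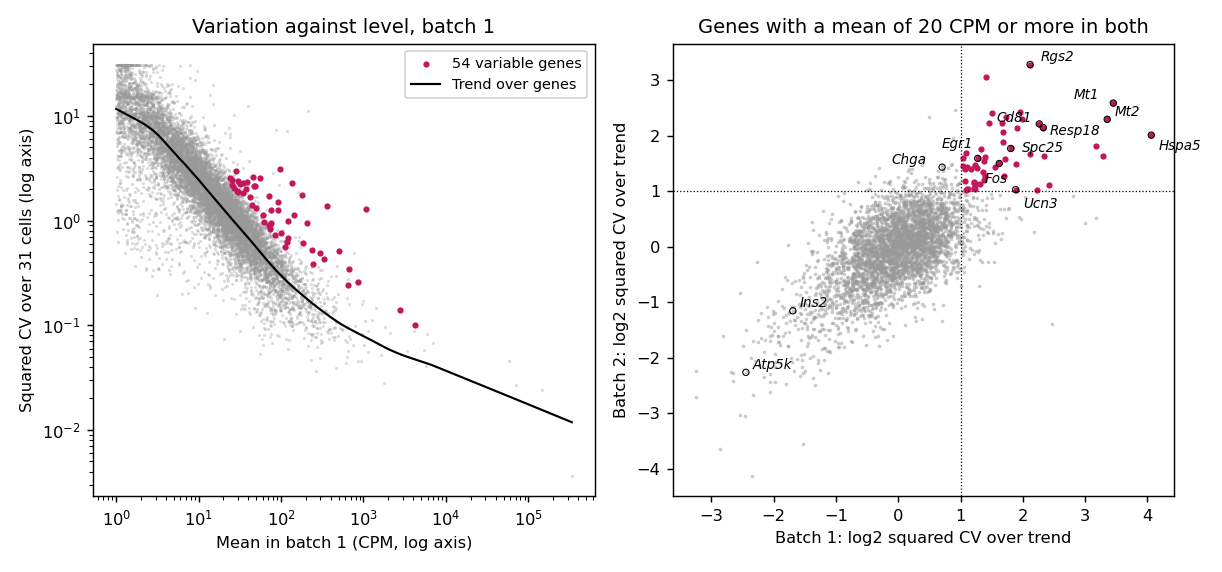
Left, squared CV over the 31 cells of batch 1 against mean level (log axes), 1 point per gene with the variable genes marked. Right, log2 of the ratio of squared CV to trend in batch 1 and batch 2 for the 3854 genes at 20 CPM or more, where the 54 variable genes lie in the upper right and r is 0.642.

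The same rule gave lists of like length in other cells. In P60 β cells (39 and 21 FACS-sorted cells) 53 of 3742 genes were called (1.42%), and 23 of them were shared with P18, which is 42.6% of the P18 list and 43.4% of the P60 list. In the 2 manually picked P15 batches (20 and 27 cells) 58 of 3701 genes were called (1.57%), with 25 shared, or 46.3% of the P18 list and 43.1% of the P15 list. In P18 α cells (19 and 13 FACS-sorted cells) 51 of 4343 genes were called (1.17%), with 9 shared, or 16.7% of the P18 β list and 17.6% of the α list. Of the P18 β list, 45 genes were at 20 CPM or more in those P60 batches, 43 in those P15 batches and 27 in those α batches. Th, G6pc2, Spc25, Fos and Resp18 were called at P15, P18 and P60, and Spc25, Fos, Resp18 and Btg2 also in α cells. Hspa5 was called at all 3 ages, with ratios of 4.72 and 2.07 at P60 and of 5.45 and 3.98 at P15, and Dusp1 at all 3 ages and in α cells. Sdf2l1 and Creld2 were called at P15 and P18 but not at P60, where each passed the limit in 1 of the 2 batches. A difference in being called is not a test of the difference.

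That test was made with limma over batches of 9 or more cells, on log2 of the ratio of squared CV to trend. Batch 3 of P18, with its 5 cells, did not enter. Against P15, 0 of 2787 genes varied more at P18 (0%) and 3 varied less (0.108%), at an adjusted p below 0.05. H2afz, a histone variant gene, had ratios of 0.439 and 0.242 in the P18 batches and of 0.530, 7.37 and 3.09 in the P15 batches (log2 difference -2.70 ± 0.57 SE, adjusted p = 0.0111). Ins2 had ratios of 0.309 and 0.449 at P18, below the 0.857, 1.18 and 2.33 at P15 (log2 difference -2.11 ± 0.44 SE, adjusted p = 0.0111). Tox4, a chromatin-binding gene, had ratios of 0.437 and 0.433 at P18 and of 1.17, 1.52 and 1.71 at P15 (log2 difference -1.97 ± 0.42 SE, adjusted p = 0.0111). The call on each of the 3 was lost in limma when P15 batch 2 or P15 batch 3 was left out, where 0 genes passed. The calls also rest on 2 P18 batches, and leaving out either leaves a single one. With any 1 of the 5 batches left out, log2 differences ran from -3.85 to -1.45 for H2afz. They ran from -2.40 to -1.86 for Ins2 and from -2.08 to -1.84 for Tox4. Against P60, limma called 0 of 2787 genes higher (0%) and 0 lower (0%), with 133 at an unadjusted p below 0.05. Hspa5 had ratios of 16.7 and 4.03 at P18 and of 1.04 to 4.72 in the 5 P60 batches, a log2 difference of 1.74 ± 0.62 SE that limma did not call (adjusted p = 0.999).

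The edgeR test called few genes between P18 and the neighbouring ages. In edgeR's quasi-likelihood test on reads summed per batch, fitted over 45 batches with Benjamini-Hochberg adjustment over 18537 genes, P18 was higher than P15 for 1 gene (0.00539%) and lower for 0 (0%). At an unadjusted p below 0.05 edgeR gave 436 genes higher and 582 lower, and DESeq2 called 53 higher and 94 lower. The gene was Tox, a factor best known from T cell development, at 31.1, 12.0 and 64.3 CPM in the P18 batches and 10.7, 8.21 and 4.79 CPM in the P15 batches. These and the following batch levels are CPM scaled by edgeR's TMM factors. The groups did not overlap, and the log2 fold change was 2.30 ± 0.40 (SE, edgeR adjusted p = 0.0269). With near-copies counted once the log2 fold change of Tox was 2.02, its edgeR adjusted p was 0.121 and edgeR called 0 genes higher. Among FACS-sorted batches alone the adjusted p of Tox was 0.340 in edgeR, while 60 genes were higher and 7 lower, with a single P15 batch. Leaving out P18 batch 1, P18 batch 3, P15 batch 1 or P15 batch 3 left 0 genes higher in edgeR. Of 35 proliferation genes, edgeR called 0, although their median log2 fold change was -4.95, against -0.06 over all genes. This is a change in reads summed per batch, not in the typical cell. The summed CPM of the 35 genes had a median per cell of 57.6 at P18 and 58.6 at P15. The highest cell had 1225 CPM at P18 and 9478 CPM at P15. Mki67 passed 100 CPM in 5 of 57 P15 cells and in 0 of 71 P18 cells. Mki67 had 1.33, 0.215 and 0 CPM in the P18 batches and 6.65, 90.8 and 57.4 CPM in the P15 batches, without overlap (log2 fold change -5.89 ± 1.8 SE, edgeR adjusted p = 0.817). DESeq2 called 9 of the 35 lower, against 94 of all 18537 genes.

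Against P60, P18 was higher for 1 gene (0.00539%) and lower for 2 (0.0108%) in edgeR, with 389 higher and 508 lower at an unadjusted p below 0.05, and with 40 higher and 105 lower in DESeq2. Dnmt3a, the de novo DNA methyltransferase, had 234, 196 and 230 CPM in the P18 batches and 69.5 to 139 CPM in the 5 P60 batches, a log2 fold change of 0.96 ± 0.18 (SE, edgeR adjusted p = 0.0463). Meis3, a homeobox gene, had 45.6, 35.4 and 36.9 CPM at P18 and 61.6 to 119 CPM at P60 (log2 fold change -1.16 ± 0.22 SE, edgeR adjusted p = 0.0463). The pseudogene Pisd-ps1 had 22.1, 23.2 and 14.5 CPM at P18 and 37.0 to 71.5 CPM at P60 (log2 fold change -1.48 ± 0.26 SE, edgeR adjusted p = 0.0422), and pseudogene reads may come from its parent gene. None of these groups overlapped, yet each call was lost with FACS-sorted batches alone, where edgeR called 0 genes in either direction. The same held without P18 batch 1 and without P60 batch 2, 4 or 5. No member of the β identity, transcription factor, granule or ER lists was called against either age. Mt1 had 505, 495 and 262 CPM at P18 (16.7 CPM in batch 3 counted once) and 257 to 766 CPM at P60, and the groups overlapped as labelled.

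Whole-cell measures were compared over batch medians with exact two-sided permutation tests, in which 3 against 5 batches cannot give less than 0.0357 and 3 against 3 cannot give less than 0.1. Genes detected per cell averaged 7263 ± 182 at P18 (SD, n = 3) and 7665 ± 318 at P60 (SD, n = 5), a difference of -402 with exact p = 0.0714, or 0.214 after adjustment over 3 tests. Insulin reads took 47.1% ± 3.19 of gene reads at P18 and 48.9% ± 2.07 at P60 (exact permutation p = 0.321, adjusted 0.321), and the difference of -1.79 percentage points was -0.252 counted once (exact permutation p = 0.857). Spike-ins took 2.34% ± 0.761 of reads at P18 and 1.86% ± 0.292 at P60 (exact permutation p = 0.321, adjusted 0.321). At P15 the batch medians averaged 7570 ± 388 genes, and exact p was 0.3 against P18.

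The P18 α cells share the age of these β cells. The edgeR test called 901 genes higher in β cells (4.86%) and 776 lower (4.19%). With the mean of log2(TPM + 1) over cells and limma in place of summed counts, the split was 619 higher and 1556 lower. With FACS-sorted batches alone edgeR called 648 higher and 456 lower, and without β batch 3 it called 764 higher and 444 lower. Spike-ins took batch medians of 2.07%, 3.20% and 1.76% of reads in β cells and 8.38%, 5.54% and 2.66% in α cells, and their part in the levels below was not tested.

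The largest rises were genes with 0 reads in the α cells, so the fold is a lower bound set by a floor of 3 reads over the α batches together. Slc2a2 had 667, 721 and 780 CPM in the β batches and 0 in all 3 α batches, at least 7532-fold higher. Sytl4, which encodes granuphilin, a docking factor of insulin granules, had 352, 593 and 766 CPM in β cells and 0 in α cells, at least 5437-fold higher. Frzb, a secreted Wnt antagonist, was at least 3358-fold higher, Glp1r, the receptor of the incretin GLP-1, at least 2869-fold, and the cation channel gene Trpm5 at least 2328-fold. The adjusted p of these 5 in edgeR ran from 4.0e-11 to 6.1e-07.

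Gcg was the largest fall, at 9.57, 0.338 and 37.3 CPM in β cells and 405955, 379303 and 409133 CPM in α cells (log2 fold change -15.12 ± 2.66 SE, edgeR adjusted p = 0.00012). The α cells were marked through Gcg-Cre and the β cells through Ins1-RFP. A gap in Gcg and in the insulin genes was thus set by how the cells were chosen, and its p-value tests nothing further. Oxtr, the oxytocin receptor gene, had 0 reads in β cells and was at least 4200-fold lower, Higd1a, a mitochondrial hypoxia-inducible gene, at least 3915-fold and Nxph1, a neurexin ligand, at least 2056-fold. Ins2 had 470042, 489030 and 401505 CPM in β cells and 97.4, 4469 and 113 CPM in α cells, where batch 2 holds the 2 α cells with high Ins2.

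Lists showed where the cells parted. The members and lists were chosen with results of these data known, so their counts describe. For each list count here and below, the shares over all genes tested are 4.86% higher and 4.19% lower. Of 21 β identity genes, 15 were higher in β cells and 1, Pcsk2, was lower, with a median log2 fold change of 6.24, against -0.04 over all genes tested. The 15 include Ins1, by whose reporter the β cells were chosen. Of 20 transcription factors, Nkx6-1, Mnx1, Pdx1, Insm1 and Mafa were higher and 2 were lower, Isl1 among them. The call on Mafa rests on 43 reads in β cells, at 0.313, 1.08 and 0 CPM in the batches, overlaps the α batches at 0, and was lost with FACS-sorted batches alone (edgeR adjusted p = 0.188) and in 7 of 13 alternatives in all. Nkx6-1 had 111, 99.8 and 64.5 CPM in β cells and 3.13, 3.34 and 3.73 CPM in α cells (log2 fold change 4.77 ± 0.43 SE, edgeR adjusted p = 4.4e-10).

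ER folding genes stood higher in β cells: 16 of 22 were called higher and 0 lower (4.86% and 4.19% of all genes). Their median log2 fold change was 1.05. Sdf2l1 had 253, 203 and 238 CPM in β cells and 39.8, 33.0 and 19.2 CPM in α cells (log2 fold change 2.93 ± 0.40 SE, edgeR adjusted p = 1.5e-06). P4hb, a protein disulphide isomerase, had 892, 903 and 1229 CPM in β cells and 446, 494 and 564 CPM in α cells (log2 fold change 1.01 ± 0.15 SE, edgeR adjusted p = 5.6e-06). In limma on mean log2(TPM + 1) only 3 of the 22 were called, all higher, with a median difference of 0.30. Sterol synthesis genes gave 6 of 18 higher and 0 lower, with a median log2 fold change of 1.28.

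Cytosolic ribosomal protein genes stood lower. Of 81 tested, 74 were lower in β cells and 0 higher (4.19% and 4.86% of all genes). Their median log2 fold change was -1.28. Rpl4 had 434, 406 and 378 CPM in β cells and 984, 1215 and 1186 CPM in α cells (log2 fold change -1.48 ± 0.14 SE, edgeR adjusted p = 1.2e-09). Without the manually picked β batch 61 of the 81 were lower, and in limma on mean log2(TPM + 1) it was 78. Granule genes went both ways in edgeR, with 10 of 26 higher and 4 lower (4.86% and 4.19% of all genes). Scg2 was higher, at 6001, 7089 and 7835 CPM in β cells and 1491, 1909 and 1188 CPM in α cells. Resp18 was lower, at 703, 506 and 828 CPM in β cells and 2860, 2432 and 2039 CPM in α cells, and so was Pcsk1n. In limma on mean log2(TPM + 1) the granule split was 2 higher and 8 lower, the log2 fold change of Chga was -0.05 in place of 0.86, and with FACS-sorted batches alone edgeR called 3 in each direction. Without α batch 1 edgeR called 4 granule genes higher and 4 lower.

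Of the 54 variable genes, several that led in P18 β cells were also higher there than in α cells on average. A gene entered that list only with a mean of 20 CPM or more in both P18 β FACS batches. No such level was asked of α cells, where 27 of the 54 met the same limits in the FACS batches. The list thus favours genes high in β cells, and the genes below are examples, not support for a difference. Mt1 had 505, 495 and 262 CPM in β cells and 19.1, 31.3 and 36.0 CPM in α cells (log2 fold change 3.82 ± 0.69 SE, edgeR adjusted p = 0.00015). Counted once, β batch 3 had 16.7 CPM of Mt1, below all 3 α batches, and the log2 fold change was 3.43 (edgeR adjusted p = 0.0036). Gad1 had 170, 173 and 34.2 CPM in β cells and 5.82, 4.90 and 0.149 CPM in α cells (log2 fold change 5.13 ± 1.02 SE, edgeR adjusted p = 0.00059). Th had 133, 107 and 61.4 CPM in β cells and 0 in α cells, at least 1223-fold higher. The test did not call Fos, which had 1198, 982 and 22.6 CPM in β cells and 563, 938 and 273 CPM in α cells, with overlap (log2 fold change 0.21 ± 0.71 SE, edgeR adjusted p = 0.97). Cd81 was lower in β cells, at 76.9, 115 and 44.9 CPM, against 303, 298 and 329 CPM in α cells (log2 fold change -1.98 ± 0.25 SE, edgeR adjusted p = 3.4e-07).

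**Figure D5:**
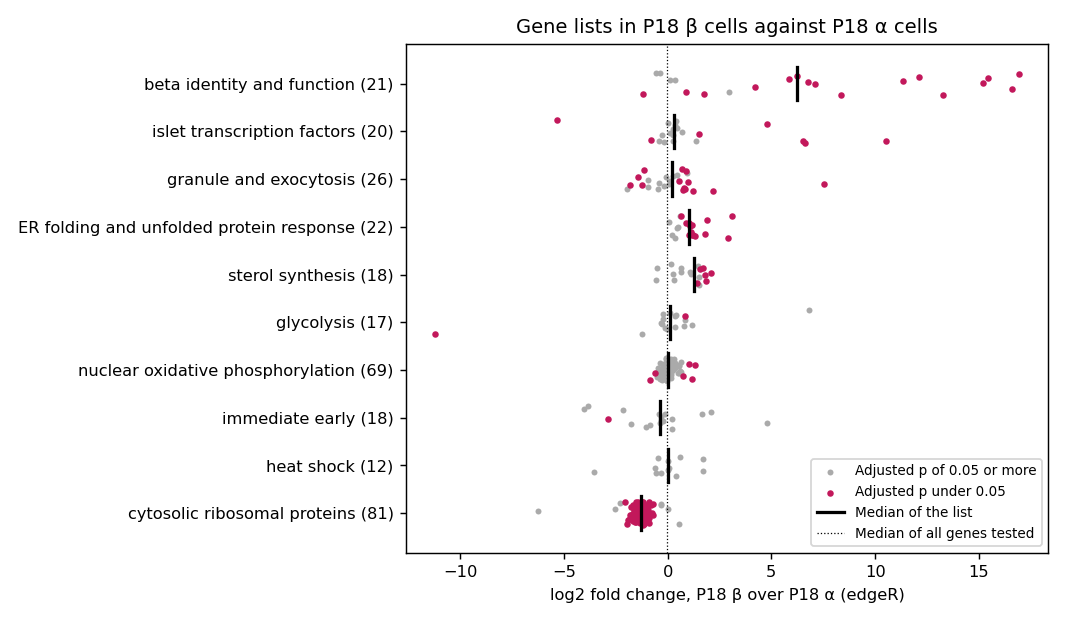
log2 fold change of P18 β over P18 α cells (edgeR, horizontal axis) for the members of each gene list (points), with list sizes in brackets and the median of all genes tested as a dotted line. Genes of β identity and of ER folding lie mostly to the right, and ribosomal protein genes lie to the left with a median of -1.28.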

How the data were processed

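Single cells were sequenced by Smart-seq2. Per the submitters' processing notes, the tools were TopHat2 2.1.0, HTSeq 0.6.0 and DESeq 1.20.0 with GRCm38/mm10; their roles and the strand setting of the counting are not given in the sources used here. The deposited table holds raw read counts for 40824 genes and 92 spike-ins, as the authors counted them. The authors' deposited TPM equals counts per length scaled per cell, spike-ins included (100% of values within 0.01 TPM). No cell was filtered beyond its label, no doublet caller was run on these individually collected cells, and 0 pairs of cell columns were identical, although 2 pairs were near-copies (r above 0.9 over genes with a mean of 5 CPM or more). Every fit was repeated with these counted once, an alternative chosen after seeing the data.

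CPM was computed over gene reads without spike-ins. Counts summed per batch (45 batches, group and collection method as terms, TMM, filterByExpr) were tested with edgeR 4.0.16 (quasi-likelihood), with DESeq2 1.42.0 and limma 3.58.1 on mean log2(TPM + 1), pseudocount 1, as alternatives. The threshold was an adjusted p of 0.05. The variation trend was a lowess fit (fraction 0.2) over genes at 1 CPM or more in 3 or more cells. Depth per cell was 0.877 M to 1.61 M reads without molecular identifiers, so intervals (exact, 95%) and floors (3 reads) cover counting error only. Coordinates are from GENCODE vM21 (97.65% of IDs found) and promoters from RefSeq GRCm38.p6. Python 3.11.15 and R 4.3.3 were used, and each fit was tested on simulated data.

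Genes named per comparison are the 5 largest called rises and falls that reach 20 CPM in whichever group is higher and whose batches do not overlap, plus 2 called members of each list and fixed hormone and marker genes. Levels name the 15 highest median TPM, variation the 12 most and 6 least variable genes, and partial detection the 8 highest medians. These rankings of level, variation and partial detection passed over ribosomal protein genes with Rpl, Rps, Mrpl or Mrps symbols and genes named mt-. They also passed over pseudogenes, small RNAs, symbols shared by several rows and genes with only a provisional name. Other genes named were chosen after their values were seen. The members and gene lists were chosen with earlier results of these data known. Batch numbers shared by groups did not pair the batches. Some genes that the naming rule picks are not reported here.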

Additional observations from a re-analysis of the deposited data

Results flagged for a closer look

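Of 16 sets of 5 P60 β batches examined for an outlying batch, 4 had 1 batch far from the rest. The limit used passes about 1 set in 20 for normally distributed values. Low genes such as Gcg, Ppy and Mki67 need not follow that rate, so the number flagged is only a description. These batches are the ones P18 β cells were set against. Ins1 was 172322 CPM in 1 P60 batch, and the nearest other P60 batch had 205601 CPM. Gcg was 244 CPM in 1 P60 batch, against 1.57 CPM in the next, while the highest P60 cell had 4213 CPM and the second 348 CPM. Ppy was 22.0 CPM in 1 P60 batch, against 1.32 CPM in the next, while the highest P60 cell had 191 CPM and the second 115 CPM. Mki67 was 8.34 CPM in 1 P60 batch, against 1.68 CPM in the next, while the highest P60 cell had 147 CPM and the second 26.3 CPM. The same 4 sets had an outlying batch with near-identical libraries counted once.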

How the results depend on the processing

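Counts moved as follows. The 54 variable genes became 32 at a mean of at least 50 CPM, and 156 to 199 with a single FACS batch when the 20 CPM limit applies to that batch only. Against P15, the 1 gene higher became 53 in DESeq2, 60 with FACS-sorted batches only, and 0 in limma on mean log2(TPM + 1), without the collection-method term, with the batch number as a block and with only the compared groups (0 to 1 with a batch left out); the 0 genes lower became 94 in DESeq2 and 7 with FACS-sorted batches only (0 to 1 with a batch left out). Against P60, the 1 gene higher became 40 in DESeq2, 2 without the filter, 3 in limma, 3 without the collection-method term, and 0 with FACS-sorted batches only and with only the compared groups (0 to 4 with a batch left out). The 2 genes lower became 105 in DESeq2, 1 with RLE factors, 1 without the filter, 11 in limma, and 0 with FACS-sorted batches only, with the block and with only the compared groups (0 to 2 with a batch left out). Against α cells, 901 genes higher became 475 with only the compared groups (717 to 802 with a batch left out), and 776 genes lower became 1231 in DESeq2, 1556 in limma, 456 with FACS-sorted batches only and 433 with only the compared groups (444 to 680 with a batch left out). The 3 genes differing in variation from P15 became 0 with the SD of log2(CPM + 1), 1 at 50 CPM and 6 with the block (0 to 18 with a batch left out), and the 0 differing from P60 became 2 without the collection-method term (0 to 1 with a batch left out).

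Log2 fold changes that changed sign, none of them called except Chga and Pkm against α cells, were these. Against P15 with FACS-sorted batches only they were Ins1 0.30, Ins2 0.58, Chga 0.33, Gcg -0.21 and Ppy 2.44; with only the compared groups Ins1 0.0836 and Ins2 0.21; in limma Ins2 0.0858, Ucn3 -0.0335 and Sst -0.28; without the collection-method term Ins2 0.16; with the block Ins2 0.00604. With a batch left out, they ran from -0.42 to 0.0590 for Ins1, -0.38 to 0.10 for Ins2, -0.10 to 0.31 for Ucn3, -1.72 to 2.77 for Ppy and -0.42 to 2.21 for Mafa. Against P60 they were Ins1 0.0069, Gcg 1.22 and Mki67 0.0506 in limma, Ins1 0.015 without the collection-method term, Ins1 0.0168 and Gcg 2.18 with only the compared groups, Gcg 4.45 with FACS-sorted batches only and Iapp 0.0482 with the block. With a batch left out, they ran from -0.10 to 0.19 for Ucn3, -0.14 to 0.0486 for Iapp, -2.53 to 4.99 for Gcg and -1.87 to 0.20 for Mafa. Against α cells they were Pkm -0.0887, Chga -0.0507 and Mki67 -0.0263 in limma, and with a batch left out -1.54 to 0.16 for Sst and -1.53 to 4.58 for Mki67. The cause of these changes was not tested.

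With near-identical libraries counted once, chosen after seeing the data, 194 of 199 results kept their direction and side of the threshold. The exceptions were the genes higher against P15 (0), Tox, which missed the threshold, Bhlhe40 against α cells, which missed it at a log2 fold change of 7.48 (edgeR adjusted p = 0.0742), and Ucn3, at -0.0583 against P15 and -0.0505 against P60.

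With the batch number as a replicate block, edgeR called 0 genes against P15, 1 against P60, and 874 higher and 745 lower against α cells. Same-numbered batches correlated at -0.0728 to 0.132. The 5 cells of batch 3 and the lack of molecular identifiers limit what low genes can show.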
